A study of Mus musculus with 2 samples.

Results

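The Mas-related G protein-coupled receptors examined here were Mrgprd, Mrgpra3, Mrgprb4, Mrgprb5, Mrgprx1, Mrgpre and Mrgprf. They were taken by gene symbol from RNA-seq of mouse dorsal root ganglion (DRG) neurons, and all 7 were found, each with 1 RefSeq transcript, among 24411 genes and 35034 transcripts. The 2 libraries compared were 1 from C57BL/6 mice (C57BL/6J in the methods) injected intraperitoneally with alum, an aluminium salt adjuvant, and 1 from mice of that strain immunized with alum plus keyhole limpet hemocyanin (KLH), the oxygen carrier of a marine snail, which serves as antigen. In the study's methods the mice were young adult males, the injection was repeated once, and thoracic and lumbar DRGs were taken later at a single time. Neurons were enriched over a BSA layer, B lymphocytes were removed with beads from both preparations, and the neurons of 10 mice were pooled for each library. The title of the control library calls it both naïve and alum alone, and it was treated as alum-injected, as in the methods. All 5 pan-neuronal genes were detected in both libraries, from Rbfox3, which encodes the neuronal nuclear antigen NeuN, at 60.8 TPM with alum alone and 44.6 TPM with alum + KLH, to Snap25, which encodes a synaptic vesicle fusion protein, at 4057 and 4279 TPM.

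Mas-related receptors, or Mrgprs, are receptors of small-diameter sensory neurons that end in the skin. Many of them signal through Gq and phospholipase C to ion channels, and activation of particular members by their ligands evokes itch or pain. They are used to tell classes of non-peptidergic C-fibre neurons apart: Mrgprd marks a large class of skin nociceptors, Mrgpra3 and Mrgprx1 mark itch-sensing neurons, and Mrgprb4 marks rare fibres that respond to stroking.

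Values are TPM, a relative transcript abundance that the authors had already divided by transcript length, so levels can be compared between genes. Each group is 1 library, so no value has an error between animals, no difference has a replicate check, and no test was made. TPM keeps no read number, so the depth of the libraries is unknown from the values. Genes above 3 TPM, the limit used in the study, were taken as detected. Differences between the pools are log2 ratios of (TPM + 1), with the alum + KLH library as numerator and the alum library as denominator. In bulk RNA, fewer cells of a type and less RNA per cell cannot be told apart.

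The members lie on chromosome 7 of GRCm38, the assembly also called mm10. Mrgpra3 (47588950 to 47601372), Mrgprx1 (48020971 to 48027597), Mrgprb5 (48167983 to 48169019) and Mrgprb4 (48198070 to 48199288), all on the minus strand, belong to a cluster of 15 Mrgpr genes of the files that spans 1458 kb. Mrgpre (143778363 to 143784500, minus strand), Mrgprf (145300828 to 145309557, plus strand) and Mrgprd (145314835 to 145324086, plus strand) lie far from it. In the annotated transcripts, the coding sequence sits in 1 exon in Mrgprd, Mrgprb4, Mrgprb5, Mrgprx1 and Mrgpre and in 2 exons in Mrgpra3 and Mrgprf, and it ranges from 930 bases in Mrgpre to 1029 in Mrgprf.

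Sequence shared between members and their relatives is shown first, because kallisto divides reads that match several transcripts. Mrgprb4 and Mrgprb5 were the closest pair of members, with 84.3% identical positions in a global alignment of their coding sequences. Every other pair of members lay between 47.6% and 63.0%. The longest run common to Mrgprb4 and Mrgprb5 has 57 bases and lies at chr7:48198265-48198321, minus strand, in the coding exon of Mrgprb4. Mrgpra3 was closer to genes outside the 7, at 84.5% to Mrgpra9, 82.9% to Mrgpra1 and 82.7% to Mrgpra4. Its longest run in common with Mrgpra4 has 76 bases (chr7:47589886-47589961, minus strand, coding) and that with Mrgpra6 has 61 bases (chr7:47589192-47589252, minus strand, coding). The 3 runs are printed 5′ to 3′ on the coding strand, from GENCODE M21 transcripts.
Mrgprb4 and Mrgprb5: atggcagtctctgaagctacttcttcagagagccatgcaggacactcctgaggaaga
Mrgpra3 and Mrgpra4: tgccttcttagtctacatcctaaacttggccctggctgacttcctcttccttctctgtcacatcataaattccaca
Mrgpra3 and Mrgpra6: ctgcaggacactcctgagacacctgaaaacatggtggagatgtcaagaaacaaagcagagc

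Each transcript was also cut into stretches of 31 bases, and those occurring in transcripts of other genes with rows in the files, in either orientation, were counted. None of the stretches of Mrgprd or Mrgprf were shared. The share was 17.9% for Mrgpra3, 5.76% for Mrgprb5, 5.05% for Mrgprb4 and 3.99% for Mrgpre. For Mrgprx1 it was 0 among genes in the files and 22.2% against all annotated transcripts, and 5 Mrgprc pseudogenes without a row in the files were among the matches.

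The start regions of members are shown for the most abundant gene, Mrgprd, and for the paralogous pair. RefSeq start regions (GRCm38.p6, 250 bases before and 50 after the start) were matched for 5 of the 7 members, Mrgprd, Mrgprb4, Mrgprb5, Mrgprx1 and Mrgpre. In Mrgprb4 and Mrgprb5 the annotated start is the ATG start codon itself, while the GENCODE gene models begin further upstream. The bases printed are those before both starts, without transcribed sequence. The 250 bases before the start were 82.4% identical between the pair. Capitals mark TATAAA, the TATA box letters, searched on both strands. It was found in 1 of the 5 windows, that of Mrgprb4, against 13.6% of 32851 start regions. TGTGGT, the core letters of the RUNX motif, was searched on both strands as well and was in 0 of the 5 windows, against 16.8% of all start regions. The printed stretches are chr7:145314585-145314834 (plus strand) for Mrgprd, chr7:48199289-48199428 (minus strand) for Mrgprb4 and chr7:48169020-48169235 (minus strand) for Mrgprb5.
Mrgprd: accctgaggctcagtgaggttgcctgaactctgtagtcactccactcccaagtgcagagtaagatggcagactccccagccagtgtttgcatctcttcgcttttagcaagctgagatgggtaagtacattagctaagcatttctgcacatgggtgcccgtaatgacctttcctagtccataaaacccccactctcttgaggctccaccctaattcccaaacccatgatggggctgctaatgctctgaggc
Mrgprb4: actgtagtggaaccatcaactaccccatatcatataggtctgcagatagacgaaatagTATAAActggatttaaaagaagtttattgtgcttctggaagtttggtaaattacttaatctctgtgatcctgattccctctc
Mrgprb5: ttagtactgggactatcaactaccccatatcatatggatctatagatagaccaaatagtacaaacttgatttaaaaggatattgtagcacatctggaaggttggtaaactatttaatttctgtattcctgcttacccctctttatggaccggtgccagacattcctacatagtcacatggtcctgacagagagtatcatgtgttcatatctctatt

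Of the 7 members, 6 were detected in both pools, and only Mrgprf was not. The order of their levels was the same in both libraries, with Mrgprd highest, followed by Mrgprb5, Mrgprx1, Mrgprb4, Mrgpra3, Mrgpre and Mrgprf. Without replicates it cannot be said which neighbours in this order differ beyond a spread. Summed over the 7 genes, the level was 417.5 TPM with alum alone and 368.9 TPM with alum + KLH.

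**Figure D1:**
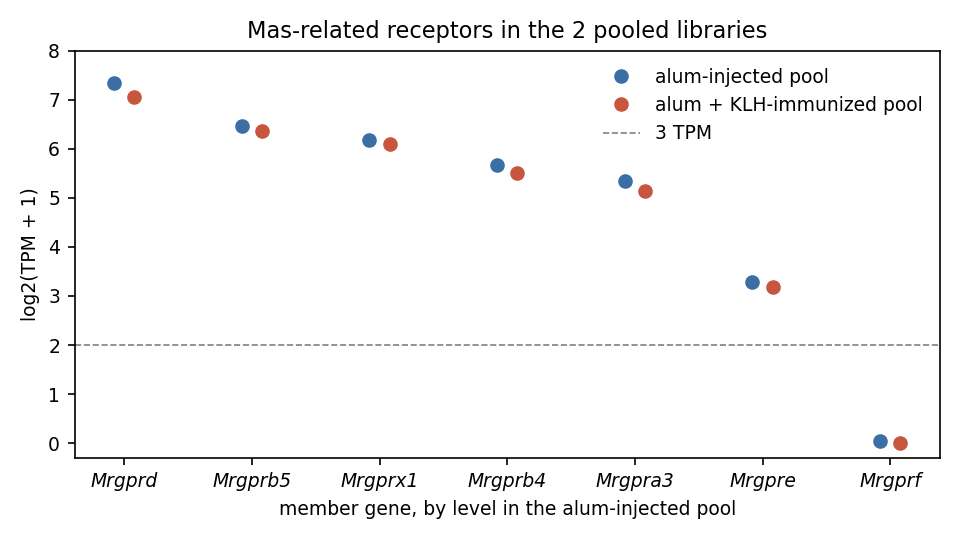
Level of each member as log2(TPM + 1), with 1 point for the alum pool and 1 for the alum + KLH pool, in order of level, and a dashed line at 3 TPM. The 6 detected genes lie above the line in both libraries, from Mrgprd at 161.0 and 132.2 TPM down to Mrgpre at 8.70 and 8.08 TPM, and Mrgprf lies at the bottom of the axis.

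Mrgprd (NM_203490), the receptor for beta-alanine on non-peptidergic skin nociceptors, was at 161.0 TPM with alum alone and 132.2 TPM with alum + KLH. It was exceeded by 5.57% and 6.85% of all genes. It made up 38.6% of the summed level of the members with alum alone and 35.8% with alum + KLH. Its level was 56.4% of that of P2rx3, the ATP-gated channel of the same neurons, in the first pool and 52.1% in the second. Among the genes closest to Mrgprd, by distance on the log2(TPM + 1) scale over 2 libraries, were Rab3a, at 162.8 and 131.8 TPM, and Mrps6, at 162.5 and 135.0 TPM, in the same order of pools.

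The receptors of itch-sensing neurons followed at lower levels. Mrgprx1 (NM_207540), also known as MrgC11 and activated by a peptide cut from proenkephalin, was at 71.3 TPM with alum alone and 68.0 TPM with alum + KLH. Mrgpra3 (NM_153067), a receptor for the antimalarial drug chloroquine, was at 39.3 and 34.2 TPM. Mrgprd was thus 2.26-fold above Mrgprx1 and 4.09-fold above Mrgpra3 with alum alone, and 1.94-fold and 3.87-fold above them with alum + KLH.

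Within the b subfamily, Mrgprb5 (NM_207538) was at 86.9 TPM with alum alone and 81.9 TPM with alum + KLH, second only to Mrgprd among the members. Mrgprb4 (NM_205795), a marker of the stroking-sensitive fibres and the neighbour of Mrgprb5 at 29050 bases, was at 50.2 and 44.6 TPM. The pair that shares the 57-base run printed above thus differed in level in each library, with Mrgprb5 above Mrgprb4 in both.

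The remaining members are receptors without an established ligand. Mrgpre (NM_175534) was at 8.70 TPM with alum alone and 8.08 TPM with alum + KLH, and Mrgprd was 18.5-fold and 16.4-fold above it. Mrgprf (NM_145379) was at 0.0324 TPM with alum alone and was listed at 0 with alum + KLH. Its gene ends 5277 bases before Mrgprd begins, on the same strand, so the lowest and the highest member are adjacent in the order of Mrgpr genes. With no read counts, Mrgprf is below the threshold and is not shown to be free of reads.

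All 6 detected members were lower with alum + KLH on the deposited TPM, with differences from -4.66% for Mrgprx1 to -17.93% for Mrgprd. Relative to 5 pan-neuronal genes, however, 5 were lower and 1 higher. Relative to 20 genes of the non-peptidergic class, 2 were lower and 4 higher. The pan-neuronal factor, 0.951, is a geometric mean of 5 ratios, the lowest of them that of Rbfox3, at a log2 ratio of -0.44. Of these 5 genes 3 were lower and 2 higher, and their summed TPM was 6295 with alum alone and 6475 with alum + KLH. A factor without Rbfox3 was not computed. Each reference moves all genes by a common factor, so the gap between the median of the members and that of all genes is nearly fixed. The 2 medians were -0.06 and 0.05 relative to pan-neuronal genes and 0.05 and 0.16 relative to the non-peptidergic class. On the deposited TPM, 56.4% of the 11648 genes above 3 TPM in at least 1 pool were lower by any amount. The log2 ratio was -0.28 for Mrgprd, -0.20 for Mrgpra3, -0.17 for Mrgprb4, -0.10 for Mrgpre, -0.09 for Mrgprb5 and -0.07 for Mrgprx1. Their median was -0.13, against -0.02 over all these genes. Mrgprd, the highest member, also had the largest difference.

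Among the 6 detected members 1, Mrgprd, was at least 1.2-fold lower, a share to be read beside 8.41% of all genes above 3 TPM in a pool. None of the 6 was at least 1.2-fold higher, against 3.2% of all genes, and none was 2-fold apart in either direction, against 1.64%. The background was also read by level. Among genes with a mean of 100 TPM and above, the class of Mrgprd, 2.74% were at least 1.2-fold lower. The share was 5.63% for genes of 10 to 100 TPM, where 0 of 4 members passed, and 15.8% for genes of 3 to 10 TPM, where Mrgpre did not pass. The SD of the log2 ratio over the 500 genes closest in level, a description of how far similar genes differ between these 2 libraries, was 0.12 around Mrgprd, 0.15 around Mrgpra3, 0.13 around Mrgprb4 and 0.53 around Mrgpre. The differences of Mrgprd, Mrgpra3 and Mrgprb4 were larger than this SD and those of Mrgprb5, Mrgprx1 and Mrgpre were smaller. The share of all genes beyond the SD around them was not counted, so nothing is read from this split. The genes behind each SD include microRNA and small nucleolar RNA symbols.

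**Figure D2:**
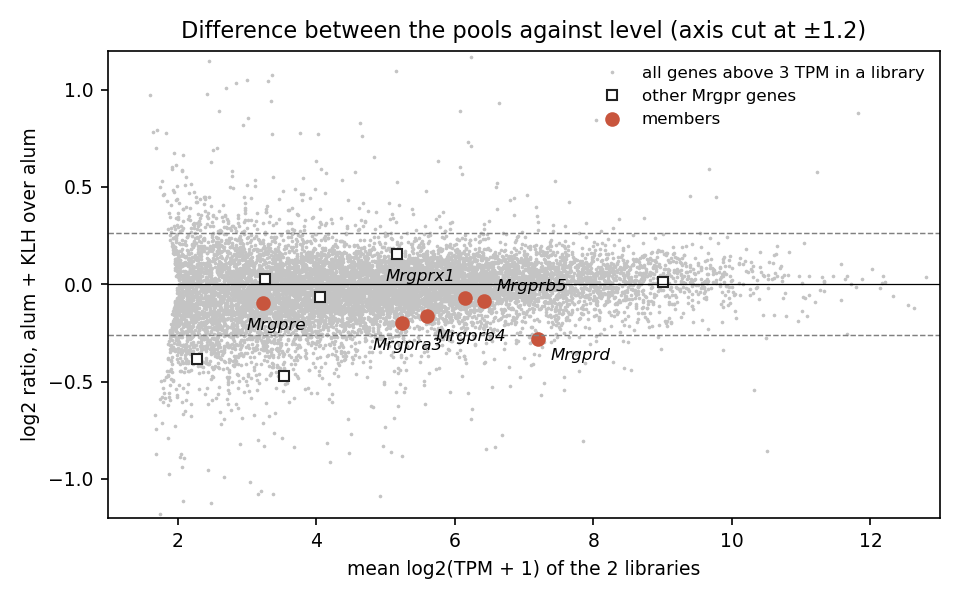
Log2 ratio of the pools against the mean log2(TPM + 1) for 11648 genes above 3 TPM in at least 1 library (grey), with the 6 detected members (filled) and the other Mrgpr genes (open squares), dashed lines at a 1.2-fold difference and 175 genes beyond the axis limits. The members lie below 0 on the deposited TPM, though 1 is above 0 relative to pan-neuronal genes and 4 are relative to non-peptidergic class genes, and only Mrgprd, at -0.28, is past the lower dashed line.

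The sign of 4 of the 6 differences, those of Mrgprb4, Mrgpre, Mrgprb5 and Mrgprx1, changed with at least 1 reference. The non-peptidergic factor, 0.876, weighs all 20 genes alike. Among them are Lpar5 and Hrh1, below 3 TPM in both pools, and the low genes Sst, at 7.06 and 3.99 TPM, and Nppb, at 12.4 and 8.95 TPM. A factor without these genes was not computed, so the small positive value of Mrgprb4 may depend on them. Relative to the non-peptidergic class genes, the log2 ratio of Mrgprd was -0.09, that of Mrgpra3 -0.01, that of Mrgprb4 0.02, that of Mrgpre 0.07, that of Mrgprb5 0.10 and that of Mrgprx1 0.12, and the median of all genes moved from -0.02 to 0.16. Relative to Hprt, a housekeeping gene, all 6 were lower. Both Mrgprd, at a log2 ratio of -0.37, and Mrgpra3, at -0.28, were past the 1.2-fold limit there. The median of all genes was -0.10 with Hprt as reference, and the share of all genes past the limit was not counted under it. Relative to pan-neuronal genes the log2 ratio of Mrgprd was -0.21, and no member was past the limit there or relative to the non-peptidergic class genes. Mrgprd stayed below 0 in each of the 8 alternatives, and so did Mrgpra3.

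**Figure D3:**
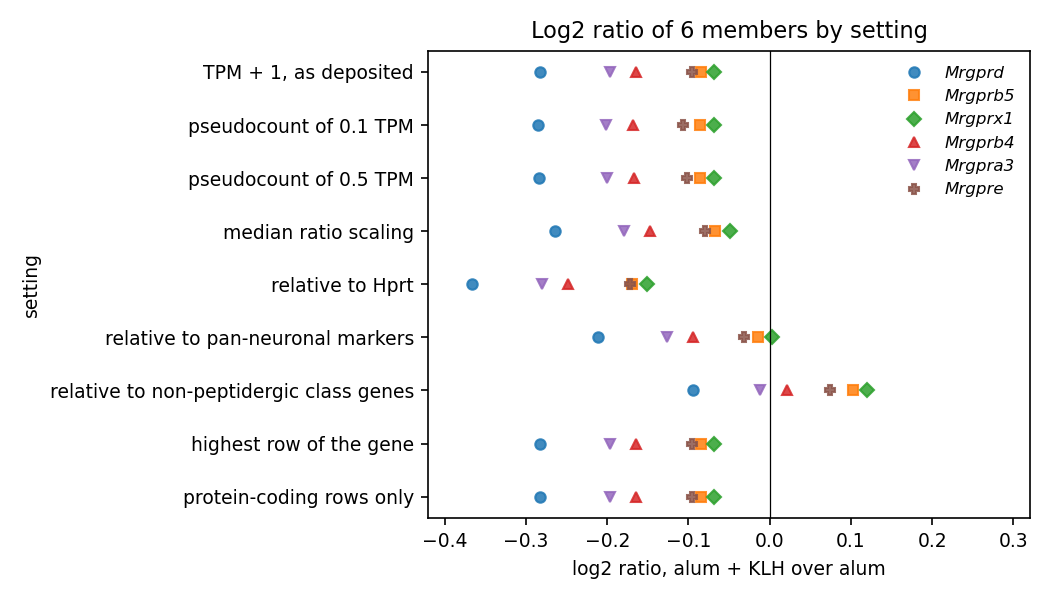
Log2 ratio of the 6 detected members (x axis) as deposited with 1 TPM added and under 8 alternatives (y axis), 1 symbol per gene. The order of the genes is kept while the values shift together, so that with the non-peptidergic class as reference Mrgprd is at -0.09 and Mrgprx1 at 0.12, on either side of 0.

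Among the members, Mrgpra3 had the largest share of sequence in common with other genes in the files. Summed with the 5 genes Mrgpra1, Mrgpra2a, Mrgpra2b, Mrgpra4 and Mrgpra9, which share stretches of 31 bases with it, the level was 114.0 TPM with alum alone and 107.0 TPM with alum + KLH, with a log2 ratio of -0.09. When Mrgpra6 was added the sums were 624.0 and 621.7 TPM and the log2 ratio was -0.005. Of these sums, 504.2 and 510.7 TPM lay on a single noncoding transcript row of Mrgpra6, so they mainly reflect that row. Both sums were chosen after the values had been seen.

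Beyond the 7 members, the files hold 14 further genes of the family, 13 Mrgpr symbols and Mas1, the receptor after which the family is named. Of the 14, 6 were above 3 TPM in at least 1 pool, all of them of the a subfamily, and on the deposited TPM 3 were lower and 3 higher, with a median log2 ratio of -0.03, while relative to Hprt 5 were lower and relative to non-peptidergic class genes 4 were higher. Mrgpra6 had the highest level of the whole family, at 510.0 TPM with alum alone and 514.7 TPM with alum + KLH. Of this, 98.9% and 99.2% lay on a single noncoding transcript row, NR_131899, at 504.2 and 510.7 TPM, while its coding row NM_205821 was at 5.84 and 4.02 TPM. Mrgpra2b was at 33.0 and 36.8 TPM and Mrgpra2a at 16.1 and 15.3 TPM. These 2 genes share 91.3% and 92.4% of their 31-base stretches with other genes in the files, so their separate levels are uncertain.

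The other a subfamily genes were low. Mrgpra9 was at 12.6 TPM with alum alone and 8.84 TPM with alum + KLH, and Mrgpra4 was at 4.56 and 3.26 TPM. These were the 2 of the 6 that were at least 1.2-fold lower, beside 8.41% of all genes above 3 TPM in a pool. Their log2 ratios were -0.47 and -0.38. Relative to non-peptidergic class genes 1 of the 6 was at least 1.2-fold lower and 1 at least 1.2-fold higher, with no share of all genes counted under that scaling. The SD of the log2 ratio over the 500 genes closest in level was 0.34 around Mrgpra9 and 0.48 around Mrgpra4. All 6 genes, lower or not, share stretches of 31 bases with Mrgpra3. Mrgpra1 was at 8.46 and 8.64 TPM.

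The remaining 8 genes of the family were at most 0.651 TPM with alum alone and 0.711 TPM with alum + KLH. Mrgprb2, the receptor through which mast cells are activated by basic secretagogues, was listed at 0 in both, as were Mrgprb3 and Mrgprg. Mrgprb1, another b subfamily gene, was at 0.309 TPM with alum alone and 0.171 TPM with alum + KLH. The 9 mast cell genes summed to 63.7 and 59.97 TPM, and 1 of them was above 3 TPM, Kit, at 58.1 and 56.2 TPM, which sensory neurons also express. The tryptase genes Tpsb2 and Tpsab1 were listed at 0 in both pools, Cpa3 was at 2.07 and 1.86 TPM, and Ms4a2 was at 1.66 and 1.29 TPM.

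Along the chromosome, the detected genes of the large cluster were neighbours. The first 10 of its 15 genes, from Mrgpra6 to Mrgprb4, were all above 3 TPM in both pools, with a lowest value of 3.26 TPM. The 5 genes after Mrgprb4, beginning with Mrgprb8 after a gap of 189 kb, reached at most 0.491 TPM with alum alone and 0.582 TPM with alum + KLH. This pattern was noticed after the values had been seen.

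**Figure D4:**
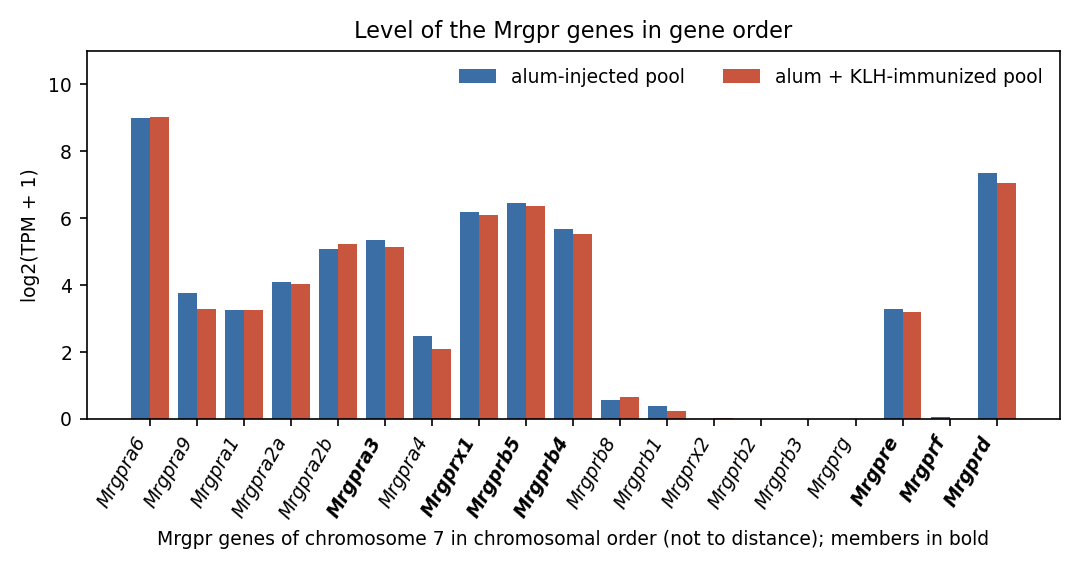
Level as log2(TPM + 1) of 19 Mrgpr genes of chromosome 7 in chromosomal order, with paired bars for the pools and the 7 members in bold, and with no distances drawn. The 10 genes from Mrgpra6 to Mrgprb4 are all above 3 TPM, the next 5 are at most 0.582 TPM, and Mrgprf, at 0.0324 and 0 TPM, lies beside Mrgprd.

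Genes used to mark non-peptidergic classes of neurons, both those with and those without these receptors, were read from a list of 20, none of them a member. Of the 20, 18 were above 3 TPM in at least 1 pool. On the deposited TPM 15 of them were lower and 3 higher with alum + KLH, 4 were at least 1.2-fold lower (8.41% of all genes) and 0 at least 1.2-fold higher (3.2% of all genes), and the median log2 ratio was -0.16, while scaling on the median of all genes left 2 at least 1.2-fold lower and scaling on pan-neuronal genes left 13 lower and 5 higher. Cd55 (a complement regulator on the cell surface) was the highest at 1652 TPM with alum alone and 1479 TPM with alum + KLH. Scn11a, which encodes the sodium channel Nav1.9, was at 374.3 and 330.2 TPM, and P2rx3 at 285.7 and 253.8 TPM. Plxnc1, a semaphorin receptor, was at 272.5 and 249.1 TPM, and Ret, the signalling receptor for GDNF family ligands, at 270.6 and 255.5 TPM. The log2 ratios of these 5 genes, from -0.08 for Ret to -0.18 for Scn11a, lie in the range of the members.

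The 4 genes past the limit, named after their values were seen, were Sst, Nppb, Cysltr2 and Il31ra. Nppb, a peptide transmitter of itch neurons, was at 12.4 TPM with alum alone and 8.95 TPM with alum + KLH, and Sst, which encodes somatostatin, at 7.06 and 3.99 TPM. Il31ra, the receptor for the itch cytokine interleukin-31, was at 22.0 and 18.1 TPM, and Cysltr2, a leukotriene receptor, at 33.1 and 27.2 TPM. Sst, Nppb and Il31ra are markers of itch-sensing neurons that are a separate class from those marked by Mrgprd or Mrgpra3. The log2 ratios of the 4 genes were -0.69 for Sst, -0.43 for Nppb, -0.27 for Cysltr2 and -0.27 for Il31ra. Other genes of the list did not go this way or this far. Osmr, at 99.9 and 88.9 TPM, had a log2 ratio of -0.17, and Htr1f, at 15.1 and 15.7 TPM, was higher, at 0.06. Among all genes of 3 to 10 TPM, the class of Sst, 15.8% were at least 1.2-fold lower. The share was 5.63% for 10 to 100 TPM, the class of Nppb, Cysltr2 and Il31ra.

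**Figure D5:**
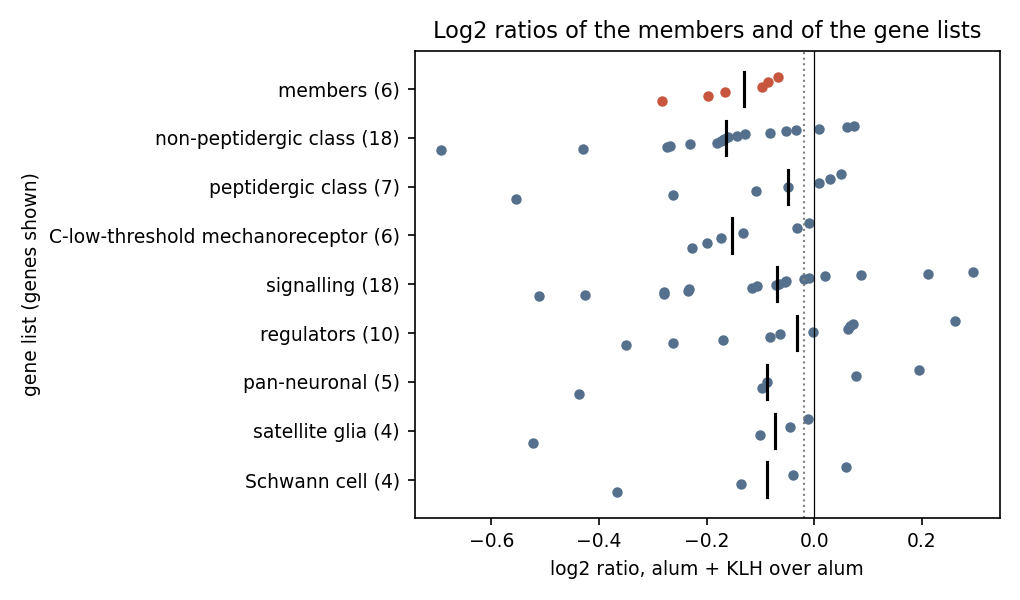
Log2 ratio of the pools (x axis) for each gene above 3 TPM in at least 1 pool in the members and in 8 gene lists (y axis, number of genes in brackets), with a bar at the median of each list and a dotted line at the median of all genes, -0.02. The 6 members have a median of -0.13 and the 18 non-peptidergic class genes a median of -0.16 on the deposited TPM, against -0.06 and -0.09 relative to pan-neuronal genes, and the members 0.05 relative to the non-peptidergic class, where all genes were at 0.16.

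Downstream of the receptors, 18 of 19 signalling genes in the files were above 3 TPM in at least 1 pool. On the deposited TPM their median log2 ratio was -0.07. At least 1.2-fold lower were 4 genes and at least 1.2-fold higher 1, beside the same 8.41% and 3.2% of all genes. These counts were 2 and 2 relative to pan-neuronal genes and 1 and 3 relative to non-peptidergic class genes. The shares of all genes were not counted under these scalings. Gnaq, which encodes the G protein subunit that couples many of these receptors to phospholipase C, was at 372.5 TPM with alum alone and 343.7 TPM with alum + KLH. Trpa1, the channel needed for itch evoked through Mrgpra3 and Mrgprx1, was at 153.9 and 130.9 TPM, with a log2 ratio of -0.23. Gnai1 was at 259.3 and 300.3 TPM and Gna14 at 137.8 and 131.0 TPM. The 5 genes past the limit, named after their values were seen, were Gnai2 (log2 ratio -0.51), Gna11 (-0.425), Arrb2 (-0.28) and Plcb3 (-0.28), which were lower, and Ano1 (0.295), which was higher. Gna11 and Arrb2 had a mean of 3 to 10 TPM, where 15.8% of all genes were at least 1.2-fold lower. Plcb3, a phospholipase C of sensory neurons, was at 41.1 and 33.7 TPM.

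Among regulators of this neuronal lineage, 10 of 11 genes were above 3 TPM and 1, Klf7, named after its value was seen, was at least 1.2-fold lower, beside 8.41% of all genes, at 52.3 TPM with alum alone and 40.8 TPM with alum + KLH. Runx1, the transcription factor on which Mrgpr expression in these neurons depends, was at 70.05 and 66.95 TPM, with a log2 ratio of -0.06. Cbfb, which encodes the partner subunit of Runx1, was at 677.5 and 812.4 TPM, with a log2 ratio of 0.26. Pou4f1 and Isl1, transcription factors of sensory neurons, were at 278.0 and 290.5 TPM and at 145.2 and 152.7 TPM. The median of the regulators was -0.03 on the deposited TPM and 0.04 relative to pan-neuronal genes.

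Markers of other cells were read beside these values, and their part in the differences was not tested. The 5 pan-neuronal genes had sums of 6295 TPM with alum alone and 6475 TPM with alum + KLH and a median log2 ratio of -0.09, with 3 lower and 2 higher on the deposited TPM and 1 lower and 4 higher relative to the non-peptidergic class. Rbfox3, with a log2 ratio of -0.44, was the 1 of the 5 past the 1.2-fold limit. The 4 satellite glia genes summed to 1414 and 1300 TPM, with a median of -0.07, and the 4 Schwann cell genes to 1107 and 1108 TPM, with a median of -0.09. The 7 smooth muscle and pericyte genes summed to 177.9 and 167.2 TPM, of which only Rgs5 was above 3 TPM, at 172.2 and 162.4 TPM, while Acta2 was at 1.07 and 0.661 TPM and Des at 0.062 and 0.089 TPM, beside a Mrgprf level near 0. The 4 fibroblast genes summed to 77.8 and 78.4 TPM, of which Dcn took 63.8 and 62.6 TPM.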

How the data were processed

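RNA-seq was made from 2 libraries, each from pooled DRG neurons of 10 mice. The authors prepared stranded mRNA libraries, trimmed paired-end reads with cutadapt and quantified transcripts with kallisto on mm10, without discovery of new transcripts; bcl2fastq made the read files, and versions are not given in the sources used here. The authors deposited TPM for each RefSeq transcript, scaled by the authors to 1000000 per library. Read numbers are not in TPM, so no interval or floor was computed.

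TPM was summed over the rows of a symbol. Log2 ratios used a pseudocount of 1 TPM, which understates the change of low genes. Because each group is 1 library, no test was made. Counts past 1.2-fold or 2-fold were set beside the share of all genes above 3 TPM in at least 1 pool. These shares were counted on the deposited TPM only, so counts past a fold under a scaling have no matching share. Genes were named by these rules: every member, other Mrgpr symbols above 3 TPM or sharing sequence with a member, up to 6 genes per list by level together with genes 1.5-fold apart above 10 TPM, and the 3 genes closest to Mrgprd, of which 1 is not reported here. Other list genes past 1.2-fold, markers at or near 0, and Osmr and Htr1f were named after their values were seen. Some genes are on more than 1 list, such as Ret, Kit and Gfra2. The members and lists were chosen with earlier results of these data known.

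Positions and transcripts came from GENCODE M21, which is on the assembly of mm10, and start regions from RefSeq. Coding sequences were aligned globally with Biopython 1.88 (score of match 1, mismatch -1, gap opening -5, gap extension -1), and identity is the share of identical alignment columns. Calculations used Python 3.11.15, numpy 2.4.6 and pandas 2.3.3, plots matplotlib 3.10.9, and the counting of genes past a fold was tested on simulated data. The alternatives were pseudocounts of 0.1 and 0.5 TPM, 4 scalings, the highest row of a gene, protein-coding rows, and thresholds of 1 and 10 TPM and none. The pan-neuronal and non-peptidergic scalings used the geometric mean of the TPM ratios of all genes on the list, without a detection threshold.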

Additional observations from a re-analysis of the deposited data

How the results depend on the processing

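With 1 library per group nothing could be left out, and no paired analysis was possible because each group holds a single pooled library. The median log2 ratio of the 6 detected members, -0.13, ranged from -0.21 relative to Hprt to -0.06 relative to pan-neuronal markers, and moved to 0.048 relative to non-peptidergic class genes. The number of members at least 1.2-fold lower was 1 on the deposited TPM. It was 2 relative to Hprt, 0 relative to pan-neuronal markers and 0 relative to non-peptidergic class genes, and 1 under each other setting. The share of all genes at least 1.2-fold lower was not counted under the scalings. Scaling factors were 0.987 for the median ratio, 1.061 for Hprt, 0.951 for pan-neuronal markers and 0.876 for non-peptidergic class genes. Restricting the background to genes above 10 TPM lowered the shares to 5.55% (1.2-fold lower), 1.92% (1.2-fold higher) and 0.872% (2-fold apart in either direction). Leaving out microRNA and small nucleolar RNA symbols lowered the last share to 0.237%, since 27 of the 191 genes 2-fold apart were left. The number of members detected was 6 at thresholds of 1 and 3 TPM and 5 at 10 TPM, in both pools. Without read counts, depth sets no stated limit on the value of Mrgprf.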

Other observations

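Other lists describe neighbouring fibre classes. C-low-threshold mechanoreceptors are unmyelinated fibres that respond to light touch, and all 6 of their genes in the files were above 3 TPM. All 6 had lower deposited TPM with alum + KLH, beside 56.4% of all genes, with a median log2 ratio of -0.15. None was at least 1.2-fold lower, beside 8.41% of all genes. Relative to non-peptidergic class genes 4 of the 6 were higher. Gfra2 is on this list and on the non-peptidergic list. Piezo2, the touch channel, was at 203.8 TPM with alum alone and 185.9 TPM with alum + KLH, and Th, which encodes tyrosine hydroxylase, at 16.6 and 14.4 TPM. The 7 peptidergic genes had a median of -0.05, with 4 lower and 3 higher on the deposited TPM, 7 lower relative to Hprt and 5 higher relative to non-peptidergic class genes, and Gal, which encodes galanin, was the single gene at least 1.2-fold lower on the deposited TPM, beside 8.41% of all genes, at 45.6 and 30.7 TPM.

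Of the 5 genes on the list of ligand precursors, 4 were below 3 TPM in both pools. Penk, the source of the proenkephalin peptide that activates Mrgprx1, was at 0.949 TPM with alum alone and 2.78 TPM with alum + KLH. Npff was at 0.140 and 0.241 TPM and Pomc at 0.779 and 0.969 TPM. Npy was at 1.63 and 0.646 TPM, and Sst was the only one above the threshold. These differences have no replicate check.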
